A study of Homo sapiens with 6 samples.

Results

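The data described here are of 9 genes that detect double-stranded RNA or pass its signal on, among the 16760 genes in the expression table of YTHDC2 knockout and WT cells. They were chosen by name: the RIG-I-like receptors DDX58 (also named RIGI), IFIH1 and DHX58, their mitochondrial adaptor MAVS, the endosomal receptor TLR3, the kinase TBK1, the RNA-activated kinase EIF2AK2, the RNA-editing enzyme ADAR and the helicase-like sensor ZNFX1. All 9 had at least 1 sequenced fragment in each of the 6 libraries, and all 9 were in the test across genes. In YTHDC2 knockout cells 3 sensors were at a small fraction of their WT level, with DDX58 at 3.90%, IFIH1 at 7.96% and TLR3 at 5.74% of the WT mean, whereas the adaptor MAVS was at 107%. Without WT replicate 3, which stands apart from the other libraries, DDX58 was at 6.64%, IFIH1 at 12.7% and TLR3 at 7.15%. The receptor DHX58, at 30.9% of the WT mean and 63.8% without that library, did not pass the test. The kinases EIF2AK2 (30.0%) and TBK1 (48.9%) and the genes ADAR (71.9%) and ZNFX1 (67.4%) lay between these.

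Double-stranded RNA in the cytosol is a sign of viral replication or of unedited cellular RNA. RIG-I, encoded by DDX58, binds the 5′ ends of short double-stranded RNA, MDA5, encoded by IFIH1, assembles along long duplexes, and both hand the signal to MAVS on the mitochondrial surface, from which TBK1 and its relative IKKε phosphorylate the transcription factor IRF3 and so switch on interferon and chemokine genes. LGP2, encoded by DHX58, shares the helicase but lacks the signalling domain and modulates the other receptors, TLR3 senses duplexes in endosomes through the adaptor TICAM1, PKR (EIF2AK2) stops translation by phosphorylating eIF2α, and ADAR edits adenosines in cellular duplexes so that they are not sensed. Many of these genes are themselves raised by interferon, while MAVS is usually not.

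The samples were H1975 cells, a human lung adenocarcinoma line, either WT (3 libraries) or YTHDC2 knockout (3 libraries), with no treatment given in the labels. YTHDC2 is a helicase and m6A reader, and the comparison asks which transcripts differ when it is lost. The knockout was made with a plasmid, and the legend of the paper's RNA-seq figure names 3 biological replicates. Beyond that, whether the libraries came from 1 clone, from a pool or from separate cultures was not given in the sources used here, so that p-values measure only the spread between these libraries. The targeted transcript was still at 7.82 to 8.92 FPKM in the knockout libraries, while WT replicate 1 held 13.0, WT replicate 2 held 17.1 and WT replicate 3 held 201 FPKM, so the labels could not be checked by absence of the transcript. The paper also assayed YTHDC2 mRNA and protein in WT and knockout H1975 cells and reports an immunoblot check of the knockout. Whether these were the sequenced cultures was not given. The log2 fold change of YTHDC2 was -2.09 ± 1.17 (SE; limma, adjusted p = 0.228) with all libraries and -0.84 (limma, adjusted p = 0.00223) without WT replicate 3. No label sets that library apart from the other WT libraries, and whether it is like them in genotype could not be settled from the labels. For that reason the results on the 9 genes are given with and without it. Of the markers for lung epithelium, KRT8 and KRT18 were high and EPCAM and KRT7 stayed under 1 FPKM in every library. The summed level of its 10 markers in the table was 174 to 182 FPKM in the knockout and 145 to 158 FPKM in WT. KRT8 and KRT18 made up most of that sum, with means of 97.65 and 73.2 FPKM in the knockout and 82.5 and 60.8 FPKM in WT. EPCAM and KRT19 were called lower in the knockout, and SFTPC was near 0. At the adjusted p of limma alone, 3 of the 9 tested (EPCAM, KRT7 and KRT19) were lower and 2 (KRT8 and KRT18) higher. These are 33.3% and 22.2%, beside 26.2% and 16.6% of all genes. Of the other marker lists, the 6 fibroblast markers summed to 21.6 to 22.9 FPKM in the knockout and 21.9 to 23.1 FPKM in WT, with COL1A2 called lower. COL3A1 (means of 15.4 FPKM in the knockout and 14.3 FPKM in WT) and COL1A1 (6.02 and 6.21 FPKM) made up most of that sum. Both were above every lung epithelial marker other than KRT8 and KRT18. The 5 leukocyte markers summed to 2.01 to 2.66 against 3.20 to 3.67 FPKM, with PTPRC near 0 and ITGAM called lower, and the 5 endothelial markers to 0.101 to 0.111 against 0.116 to 0.266 FPKM. Whether these differences in markers have a part in those of the sensors was not tested.

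The sequences upstream of the genes are shown for 4 members that were lower in the knockout and hold an interferon-response-like motif, and for MAVS, which holds none. Each is a RefSeq window of 300 bases on the GRCh38.p14 assembly, from 250 bases before the annotated start to 50 after it, written 5′ to 3′ on the strand of the gene. Capitals mark matches on either strand to GAAANNGAAA, the repeat that interferon-activated factors such as ISGF3 recognise, or to GAAANGAAA, the same repeat at a spacing 1 base shorter. DDX58 is at chr9:32526147-32526446 (minus strand), IFIH1 at chr2:162318635-162318934 (minus), TLR3 at chr4:186068906-186069205 (plus), EIF2AK2 at chr2:37156931-37157230 (minus) and MAVS at chr20:3846584-3846883 (plus).
DDX58: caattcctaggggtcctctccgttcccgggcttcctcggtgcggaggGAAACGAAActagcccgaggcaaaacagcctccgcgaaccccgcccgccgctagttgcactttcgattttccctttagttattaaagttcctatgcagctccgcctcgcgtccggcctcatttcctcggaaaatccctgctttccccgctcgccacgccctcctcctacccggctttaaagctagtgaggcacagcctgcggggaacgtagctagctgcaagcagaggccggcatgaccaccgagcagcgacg
IFIH1: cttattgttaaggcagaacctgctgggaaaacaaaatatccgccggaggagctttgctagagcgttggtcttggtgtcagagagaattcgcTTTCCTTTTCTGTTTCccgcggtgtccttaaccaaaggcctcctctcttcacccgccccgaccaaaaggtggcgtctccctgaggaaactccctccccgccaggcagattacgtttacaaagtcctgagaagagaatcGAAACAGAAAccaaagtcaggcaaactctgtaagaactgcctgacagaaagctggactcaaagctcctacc
TLR3: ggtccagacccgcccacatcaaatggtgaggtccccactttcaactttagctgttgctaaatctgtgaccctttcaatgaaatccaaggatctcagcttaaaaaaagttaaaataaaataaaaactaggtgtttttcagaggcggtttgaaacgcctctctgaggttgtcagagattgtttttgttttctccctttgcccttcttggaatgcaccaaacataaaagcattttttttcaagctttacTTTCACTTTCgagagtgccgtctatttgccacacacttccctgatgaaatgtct
EIF2AK2: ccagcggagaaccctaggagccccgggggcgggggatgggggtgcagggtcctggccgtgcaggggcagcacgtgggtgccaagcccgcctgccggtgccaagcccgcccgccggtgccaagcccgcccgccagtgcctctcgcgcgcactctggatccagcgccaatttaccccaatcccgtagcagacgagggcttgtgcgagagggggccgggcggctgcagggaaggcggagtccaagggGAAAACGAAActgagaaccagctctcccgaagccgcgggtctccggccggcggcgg
MAVS: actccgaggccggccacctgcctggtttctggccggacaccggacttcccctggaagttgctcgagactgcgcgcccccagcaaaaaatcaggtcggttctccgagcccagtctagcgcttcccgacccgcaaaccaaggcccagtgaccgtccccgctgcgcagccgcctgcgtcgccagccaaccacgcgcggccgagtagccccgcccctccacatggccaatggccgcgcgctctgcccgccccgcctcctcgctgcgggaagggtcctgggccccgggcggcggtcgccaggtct

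Of the 7 members with an entry in the promoter table, 4 held a match. DDX58 had GAAACGAAA at position -203 from the start, IFIH1 had 3 matches to GAAANNGAAA of which 2 overlap on the minus strand and the other is GAAACAGAAA at position -21, and in TLR3 (GAAAGTGAAA on the minus strand, from position -4) and EIF2AK2 (GAAAACGAAA, from position -6) the match ran across the start itself. Neither motif was found in the windows of MAVS, TBK1 or any of the 3 start sites of ADAR. Among all 35116 promoter windows of this length, 3.57% held GAAANNGAAA, 3.12% held GAAANGAAA and 6.4% held either. Among the 17884 windows of tested genes the shares were 2.94%, 2.59% and 5.23%. These are shares of windows, whereas the members were counted by gene. A match is only a description of the letters, the motifs were chosen with the expression values in view, and binding of any factor was not measured.

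DDX58 had the lowest log2 fold change of the members, although its share of the WT level could not be told from that of TLR3 by the counting intervals below. It was at 0.378, 0.175 and 0.219 FPKM in the knockout libraries and at 3.22, 4.52 and 12.02 FPKM in the WT libraries. All knockout values lay below all WT values, and the highest knockout library was under the lowest WT library by far, while WT replicate 3 was well above the other WT libraries. On the scale of log2(FPKM + 0.1) the fold change was -4.04 ± 0.42 (SE; limma, adjusted p = 0.000169), rank 9 from the lowest among the 15441 genes tested, and -3.50 (limma, adjusted p = 0.000263) without WT replicate 3. The pseudocount of 0.1 understates folds of genes this low. The values rest on 120 fragments in the knockout and 2634 in WT, a depth-scaled ratio of 0.0404 (95% interval for counting error only, 0.0334 to 0.0485), or 0.0668 without WT replicate 3.

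IFIH1 followed the same order of libraries in WT. The knockout libraries were at 0.294, 0.201 and 0.387 FPKM and the WT libraries at 1.84, 2.78 and 6.46 FPKM. The groups did not overlap, and WT replicate 3 was again the highest. The log2 fold change was -3.10 ± 0.39 (SE; limma, adjusted p = 0.000404) and -2.61 (limma, adjusted p = 0.000596) without WT replicate 3, from 105 fragments in the knockout and 1142 in WT. The depth-scaled ratio of fragments was 0.0815, or 0.127 without WT replicate 3. For both receptors the call was lost when recovered fragments were tested with limma voom, where the log2 fold changes were -4.47 (adjusted p = 0.0872) and -3.45 (adjusted p = 0.0648).

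DHX58, the receptor without a signalling domain, did not pass the test. It was at 0.259, 0.358 and 0.142 FPKM in the knockout and at 0.429, 0.364 and 1.67 FPKM in WT. The groups were separated only barely, since the highest knockout library and WT replicate 2 were nearly equal and the WT mean was carried by WT replicate 3. Its log2 fold change was -1.15 with a 95% confidence interval of -2.22 to -0.07 (limma, adjusted p = 0.07997), and -0.54 (limma, adjusted p = 0.187) without WT replicate 3. Without WT replicate 2 instead, it was -1.501 (limma, adjusted p = 0.0494) and would be called.

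**Figure D1:**
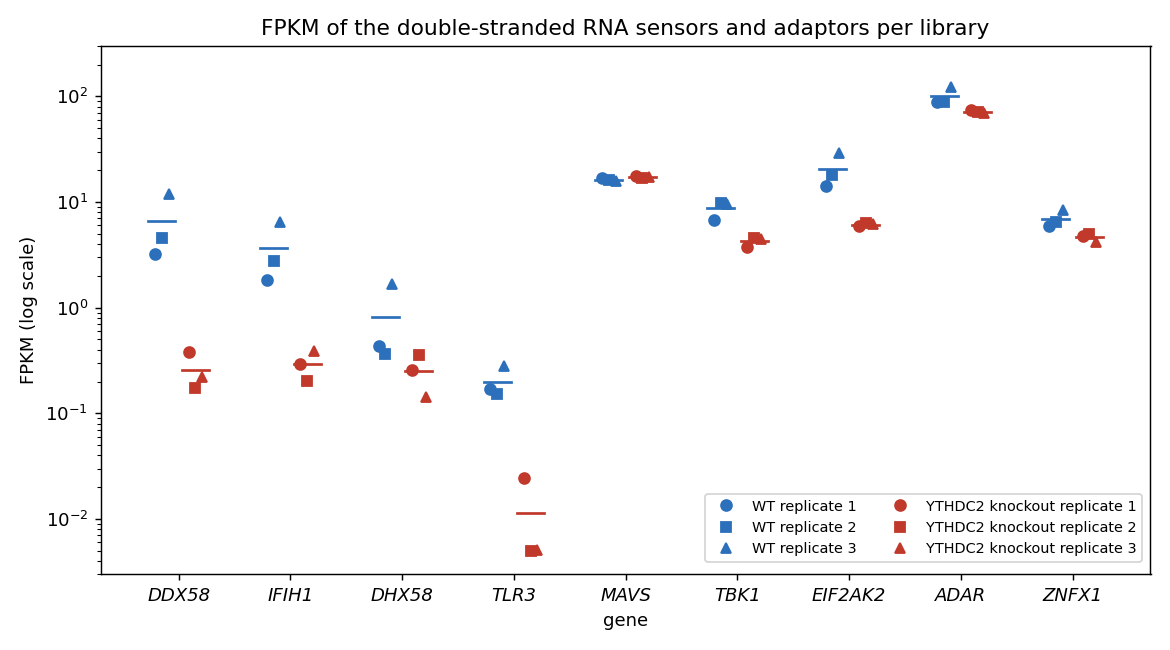
FPKM on a log axis of the 9 genes in each of the 6 libraries, with WT in blue, YTHDC2 knockout in red, a marker shape per replicate number and a line at each group mean. Knockout values lie below WT values for 8 genes and above them for MAVS, and WT replicate 3 (blue triangle) is the highest WT library for 7 genes.

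As a family, the RIG-I-like receptors summed to 0.931, 0.734 and 0.748 FPKM in the knockout libraries and to 5.49, 7.66 and 20.1 FPKM in the WT libraries. The make-up of the sum was nearly constant within WT in spite of the spread in its size. DDX58 gave 58.7%, 59.0% and 59.7% of it and DHX58 4.75% to 8.27%. In the knockout DDX58 gave 23.8% to 40.6% and DHX58 19.0% to 48.8%, although these shares rest on 12 to 31 fragments of DHX58 per library. The FPKM ratio of DHX58 to IFIH1 was accordingly 0.881, 1.78 and 0.368 in the knockout and 0.233, 0.131 and 0.258 in WT. On the log2(FPKM + 0.1) scale this ratio was higher in the knockout by 1.95 (exact two-sided permutation test, p = 0.1), which is the smallest p that 3 libraries against 3 allow.

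**Figure D2:**
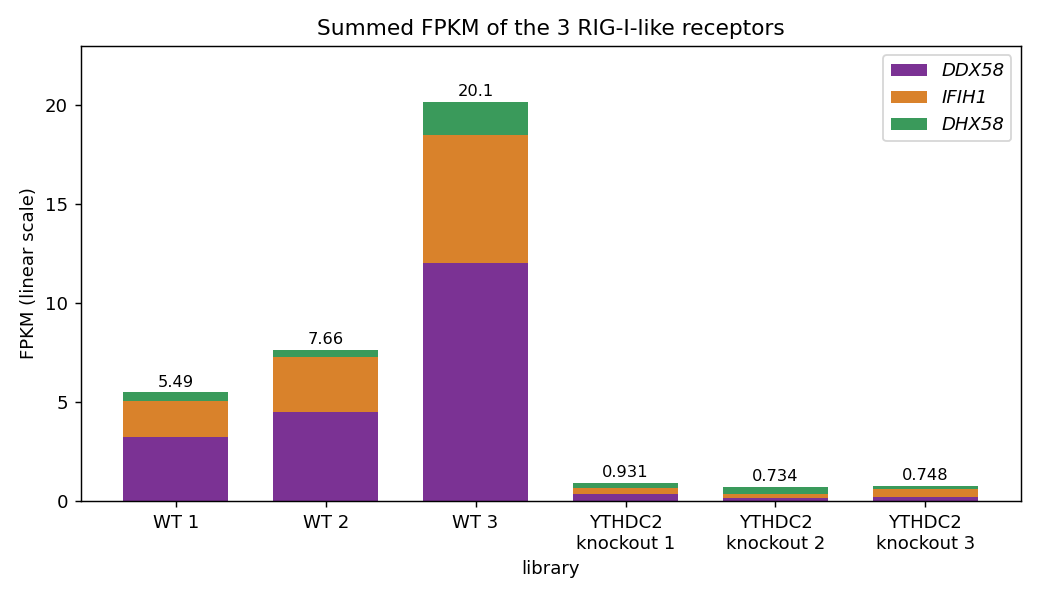
Stacked FPKM on a linear axis of DDX58, IFIH1 and DHX58 in each library, with the sum printed above each bar. WT sums run from 5.49 to 20.1 and knockout sums from 0.734 to 0.931.

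TLR3, the endosomal receptor, was scarce in both genotypes. It was at 0.0243, 0.00499 and 0.00512 FPKM in the knockout and at 0.169, 0.152 and 0.278 FPKM in WT. That is 5, 1 and 1 fragments against 31, 28 and 46, so that the groups did not overlap, and here WT replicate 3 was less far from its group. The depth-scaled ratio of fragments was 0.0591 (95% counting interval 0.0232 to 0.126), and 0.0726 without WT replicate 3. Its log2 fold change of -1.41 ± 0.22 (SE; limma, adjusted p = 0.00105) is small beside that ratio because of the pseudocount, and it was -1.23 (limma, adjusted p = 0.00347) without WT replicate 3. With a pseudocount of 1 it was -0.24 and under the fold threshold, and with 0.01 it was -3.36. TICAM1, the adaptor that TLR3 signals through, was at 1.62, 1.32 and 1.55 FPKM in the knockout and 1.30, 1.36 and 1.04 FPKM in WT, overlapping (log2 fold change 0.26; limma, adjusted p = 0.180).

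MAVS, the adaptor of the RIG-I-like receptors, was among the steadiest of the members. The knockout libraries were at 17.8, 17.0 and 17.2 FPKM and the WT libraries at 16.7, 16.0 and 15.9 FPKM. Knockout values were slightly above WT values without overlap, and WT replicate 3 was the lowest library. The log2 fold change was 0.10 with a 95% confidence interval of -0.02 to 0.22 (limma, adjusted p = 0.176), and 0.09 (limma, adjusted p = 0.318) without WT replicate 3. After median scaling of the libraries it was 0.22 (limma, adjusted p = 0.0353), still under the fold threshold. The ratio of receptor to adaptor transcript was therefore lower in every knockout library than in every WT library, for DDX58 and for IFIH1. For each FPKM of MAVS the WT libraries held 0.193, 0.283 and 0.758 FPKM of DDX58 and the knockout libraries 0.0212, 0.0103 and 0.0127 FPKM. The log2 ratio was lower in the knockout, with a difference of -4.14 for DDX58 and of -3.20 for IFIH1 (exact two-sided permutation test, p = 0.1 each).

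TBK1, the kinase that MAVS and TICAM1 engage to phosphorylate IRF3, was at 3.79, 4.603 and 4.47 FPKM in the knockout and at 6.81, 9.83 and 9.65 FPKM in WT. The groups did not overlap, and WT replicate 1 rather than replicate 3 was the one apart. Its log2 fold change was -1.0002 ± 0.14 (SE; limma, adjusted p = 0.000772), which lies at the fold threshold, so the call turns on small changes of processing although the adjusted p stayed low. It was -0.92 (limma, adjusted p = 0.00462) once WT replicate 3 was left out, -0.91 without WT replicate 2, and after a correction for GC content -0.75. IKBKE, which encodes the related kinase IKKε, was at 2.34, 2.24 and 2.19 FPKM in the knockout and 2.60, 1.89 and 2.12 FPKM in WT (log2 fold change 0.04; limma, adjusted p = 0.812), with overlapping groups. The log2 ratio of IKBKE to TBK1 was higher in the knockout by 1.04 (exact two-sided permutation test, p = 0.1). Over the 5 ratios compared, which include that of EIF2AK2 to ADAR, the Benjamini-Hochberg adjusted value was 0.1 for each, and the groups did not overlap in any. Without WT replicate 3 the differences were -3.58 (DDX58 to MAVS), -2.70 (IFIH1 to MAVS), 2.075 (DHX58 to IFIH1), -1.07 (EIF2AK2 to ADAR) and 0.95 (IKBKE to TBK1).

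EIF2AK2, the gene of PKR, was at 5.92, 6.29 and 6.14 FPKM in the knockout, a narrow range, and at 14.2, 18.2 and 28.8 FPKM in WT. Every knockout library was below every WT library. The log2 fold change was -1.66 ± 0.21 (SE; limma, adjusted p = 0.000383) and -1.38 (limma, adjusted p = 0.000277) without WT replicate 3. None of the other kinases that phosphorylate eIF2α was called. On the log2 scale EIF2AK1, the heme-regulated kinase, differed by 0.14 (limma, adjusted p = 0.0434), EIF2AK3 (PERK, of the endoplasmic reticulum) by -0.59 (limma, adjusted p = 0.00125) and EIF2AK4 (GCN2, of amino acid shortage) by -0.38 (limma, adjusted p = 0.00132).

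ADAR was the most abundant member, at 74.4, 70.8 and 70.1 FPKM in the knockout and 89.2, 88.8 and 122 FPKM in WT. Knockout values were lower without overlap, and WT replicates 1 and 2 were close to each other. Its log2 fold change of -0.46 ± 0.11 (SE; limma, adjusted p = 0.00867) passed the adjusted p and not the fold threshold, as it did without WT replicate 3 (-0.31; limma, adjusted p = 0.00302). With limma voom the adjusted p was 0.0601. The constitutive and the interferon-driven transcript of ADAR are not separated in a value per gene. ADARB1, which encodes the related editing enzyme ADAR2, was at 1.28, 1.28 and 1.23 FPKM in the knockout and 1.19, 1.09 and 1.37 FPKM in WT (log2 fold change 0.06; limma, adjusted p = 0.770). The FPKM ratio of EIF2AK2 to ADAR, the kinase that duplexes activate to the enzyme that edits them, was 0.0795, 0.0888 and 0.0876 in the knockout and 0.159, 0.205 and 0.236 in WT, a log2 difference of -1.20 (exact two-sided permutation test, p = 0.1).

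ZNFX1, a helicase-like protein that binds double-stranded RNA at the mitochondria, was at 4.76, 5.01 and 4.20 FPKM in the knockout and 5.86, 6.48 and 8.38 FPKM in WT. The groups did not overlap, though the gap between them was smaller than the range within WT. Its log2 fold change was -0.55 ± 0.13 (SE; limma, adjusted p = 0.00963), and -0.40 (limma, adjusted p = 0.0231) without WT replicate 3.

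Of the 9 members, 5 were called lower (DDX58, IFIH1, TLR3, TBK1 and EIF2AK2) and 0 higher when a call needed an adjusted p under 0.05 together with a log2 fold change beyond 1 in either direction. Over all genes tested, 1.99% were called lower and 0.732% higher (307 and 113 genes, or 232 and 183 with median scaling and 204 and 197 with quantile normalization). At the adjusted p of limma alone 7 of the 9 were lower and 0 higher beside 26.2% and 16.6% of all genes, and at an unadjusted p under 0.05 8 were lower and 0 higher, beside 31.3% and 19.4%. Each knockout library was below each WT library for 8 members and above for 1, MAVS, beside 33.1% and 20.7% of all genes. Set against WT replicates 1 and 2 alone, 8 members were below, beside 37.0% of all genes. The median log2 fold change of the members was -1.15, and that of all genes tested -0.09. Without WT replicate 3, 4 members were called, with TBK1 no longer past the fold threshold, and 3 were called with limma voom or with a pseudocount of 1, beside 1.99%, 3.13% and 0.447% of all genes called lower under these settings. In bulk RNA, fewer cells with a transcript and less of it per cell cannot be told apart.

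**Figure D3:**
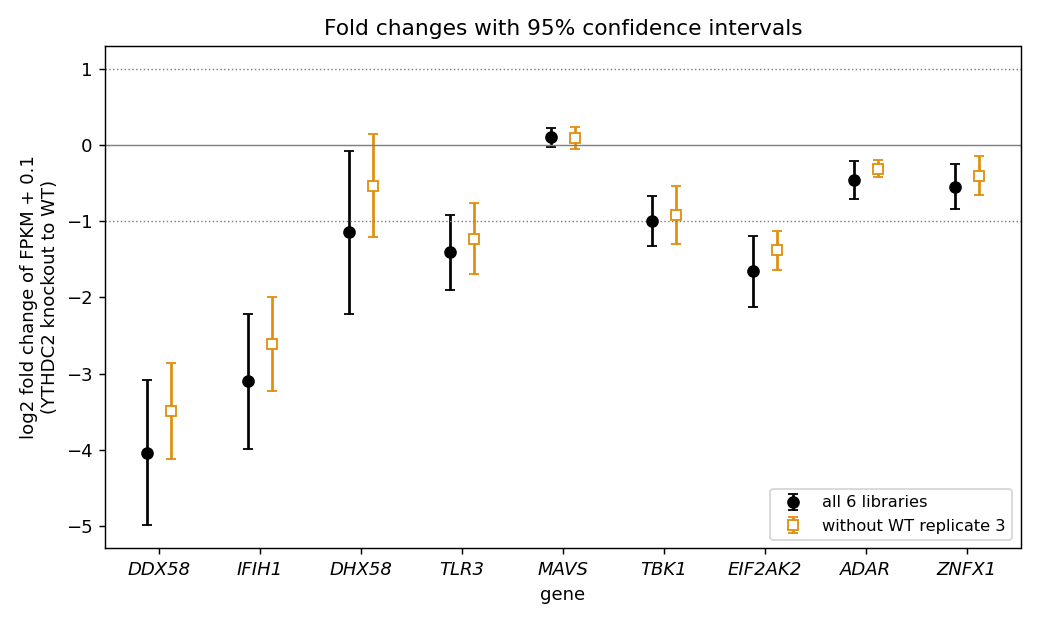
Log2 fold change of FPKM + 0.1 from WT to YTHDC2 knockout for the 9 genes with 95% confidence intervals from limma, with all 6 libraries (filled circles) and without WT replicate 3 (open squares). DDX58 moves from -4.04 to -3.50 and MAVS from 0.10 to 0.09, dotted lines mark the fold threshold, and the interval of DHX58 without WT replicate 3 includes 0.

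WT replicate 3 was the highest WT library for 7 of the 9 members, against 35.7% of all genes. Set against the mean of WT replicates 1 and 2, it held 4.20 times as much DHX58, 3.11 times as much DDX58, 2.80 times IFIH1, 1.78 times EIF2AK2 and 1.73 times TLR3. ADAR (1.37) and ZNFX1 (1.36) were less raised, and MAVS (0.971) was not. TBK1 was at 1.16 times that mean but below WT replicate 2, at 9.65 against 9.83 FPKM. Among the 7 members whose mean reached 1 FPKM, 3 reached 1.5 times in that library, beside 0.998% of the 11121 genes at such a level. The same library held YTHDC2 at 201 FPKM, and the part of that in these values was not tested. Members also differed in how evenly they were measured within a group. The coefficient of variation in WT ran from 2.78% for MAVS to 89.5% for DHX58, and in the knockout from 2.28% for MAVS to 96.9% for TLR3.

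FPKM allows levels to be compared between genes per length. In WT their order ran from ADAR (99.9 ± 18.9 FPKM, SD, n = 3) through EIF2AK2 (20.4 ± 7.54), MAVS (16.2 ± 0.449), TBK1 (8.76 ± 1.70), ZNFX1 (6.91 ± 1.31), DDX58 (6.59 ± 4.75), IFIH1 (3.69 ± 2.44) and DHX58 (0.819 ± 0.733) to TLR3 (0.200 ± 0.0685). The ranges of EIF2AK2 and MAVS overlapped, as did those of neighbours from TBK1 down to IFIH1. With WT replicates 1 and 2 alone, the means of EIF2AK2 and MAVS were 16.2 and 16.3 FPKM. In the knockout, EIF2AK2 (6.11 ± 0.188 FPKM, SD, n = 3) lay below MAVS (17.3 ± 0.395) without overlap. The 3 RIG-I-like receptors could not be ordered there, at 0.294 ± 0.0928 (IFIH1), 0.257 ± 0.107 (DDX58) and 0.253 ± 0.108 FPKM (DHX58), and 4 members had means under 1 FPKM against 2 in WT.

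Beyond the members, 7 lists of genes that act with them or beside them held 89 genes, of which 79 were in the table and 71 were tested. Of the 71, 5 were called lower and 0 higher by limma (6 and 0 by limma voom), and the median log2 fold change was -0.23 beside -0.09 for all genes tested. At the adjusted p alone 26 (36.6%) were lower and 9 (12.7%) higher, and at an unadjusted p under 0.05 35 (49.3%) were lower and 10 (14.1%) higher, beside the shares of all genes given above (31.3% and 19.4% at the unadjusted p). The counts of the single lists that follow are of few genes and are to be read against those shares. Without WT replicate 3, 3 were called, as TRIM25 and SAMHD1 then missed the fold threshold.

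Among 19 cofactors and regulators of the RIG-I-like receptors that were tested, 2 were called lower. TRIM25, a ubiquitin ligase linked to RIG-I activation, was at 5.60, 6.16 and 6.58 FPKM in the knockout and 11.6, 10.7 and 19.4 FPKM in WT (log2 fold change -1.12; limma, adjusted p = 0.00184). DDX60, a helicase reported as a cofactor of the receptors, was at 0.165, 0.128 and 0.0883 FPKM in the knockout and 0.399, 0.545 and 1.69 FPKM in WT (-1.89; limma, adjusted p = 0.00639). Both were lower without overlap, with DDX60 no longer called by limma voom (adjusted p = 0.118), and the median of the list was -0.19. Without WT replicate 3 the log2 fold changes were -0.86 for TRIM25 and -1.34 for DDX60.

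Of 18 genes that carry the signal downstream of MAVS and TICAM1, none was called by limma, nor by limma voom. At the adjusted p alone 3 were lower and 4 higher, and at an unadjusted p under 0.05 7 were lower and 4 higher. IRF3, the transcription factor at the end of the chain, was at 51.0, 49.8 and 49.3 FPKM in the knockout and 42.2, 37.7 and 39.2 FPKM in WT (log2 fold change 0.33; limma, adjusted p = 0.00133). TBKBP1, a scaffold of TBK1, differed by 0.50 on the log2 scale (limma, adjusted p = 0.000780). Both were without overlap between the groups. After the correction for GC content IRF3 was at 0.08 (limma, adjusted p = 0.118) and TBKBP1 at 0.16 (limma, adjusted p = 0.125), so that neither passed.

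Of 11 other proteins that bind double-stranded RNA, 0 were called by limma or limma voom, and 2 were lower and 2 higher at an unadjusted p under 0.05. DHX9, a nuclear RNA helicase, came nearest, at 97.2, 96.5 and 95.4 FPKM in the knockout and 175, 194 and 165 FPKM in WT (log2 fold change -0.88; limma, adjusted p = 2.82e-05). The 6 kinases, substrate and phosphatase subunits around eIF2α had a median of -0.41 with 0 called by limma or limma voom, and 5 were lower and 1 higher at an unadjusted p under 0.05. PPP1R15A (GADD34), the stress-induced phosphatase subunit, differed by -0.63 on the log2 scale (limma, adjusted p = 4.65e-05), and EIF2S1, which encodes eIF2α itself, by -0.44 (limma, adjusted p = 0.000411). Of 6 tested genes of other Toll-like receptors and their partners, 0 were called by limma and 1 by limma voom, 3 were lower and 0 higher at an unadjusted p under 0.05, and 5 had means under 1 FPKM. TLR5, the flagellin receptor, had the smallest adjusted p there (log2 fold change -0.64; limma, adjusted p = 0.0260), followed by CD14, a co-receptor of TLR4 (-0.93; limma, adjusted p = 0.0718). Among 6 tested genes of cytosolic DNA sensing, SAMHD1, a dNTP hydrolase, was called lower, at 9.44, 9.18 and 9.37 FPKM in the knockout and 18.4, 18.9 and 24.9 FPKM in WT (log2 fold change -1.13; limma, adjusted p = 0.000113), and at -0.99 without WT replicate 3. By limma voom 2 of the 6 were called, the other being IFI16, a DNA-binding protein, with 1 fragment in the knockout and 27 in WT (adjusted p = 0.0103).

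Outputs that the sensors switch on were at most at 0.146 FPKM in any knockout library (CXCL8, a neutrophil chemokine gene, in replicate 2, named after its value was seen). Of 5 tested, 2 were called lower. IFNB1, which encodes interferon beta, had 0 fragments in the 3 knockout libraries and 43 in WT, at 0.469, 0.233 and 1.08 FPKM (limma, adjusted p = 0.000938). The floor of the whole knockout group was taken as 3 fragments, and the WT counts were taken as exact. On that basis IFNB1 was at least 16.2-fold lower, and at least 9.81-fold lower without WT replicate 3. CCL5, a chemokine gene induced by IRF3 and NF-κB, had 0 and 674 fragments (limma, adjusted p = 3.06e-05), at least 253-fold lower and at least 154-fold lower without that library.

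**Figure D4:**
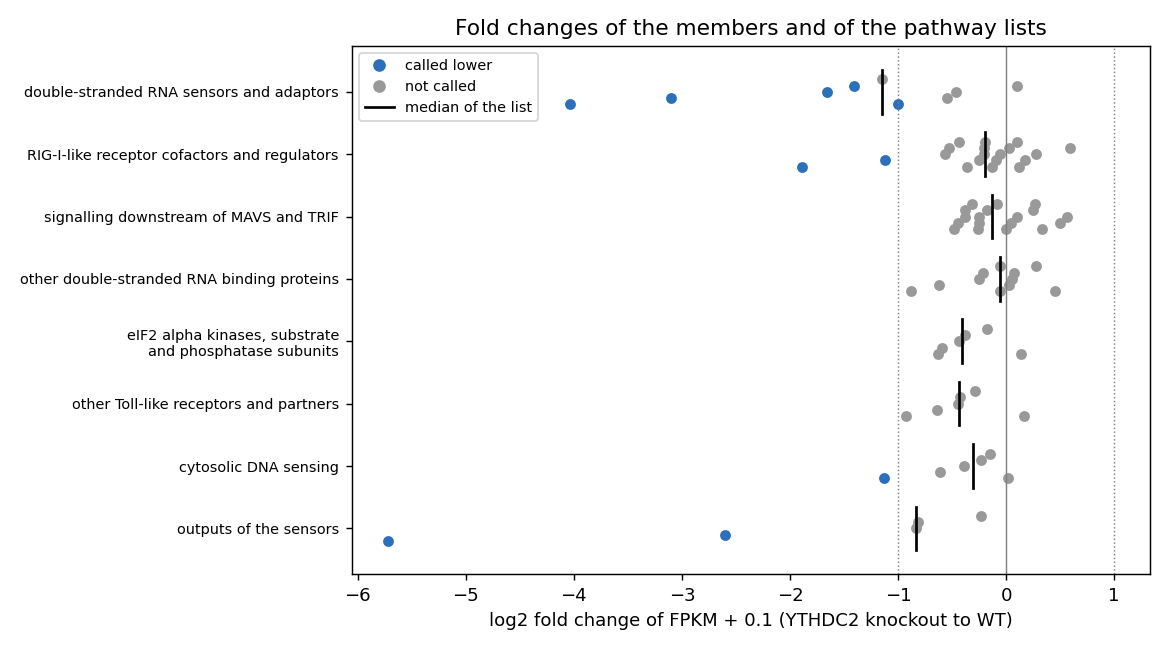
Log2 fold change of FPKM + 0.1 from WT to YTHDC2 knockout for each tested gene of the 9 sensors and adaptors (top) and of the 7 pathway lists, with genes called lower in blue, other genes in grey and a black line at each median. The median of the sensors lies at -1.15, and those of the cofactor, signalling and RNA-binding lists lie at -0.19, -0.13 and -0.05. Those of the eIF2 alpha, other Toll-like receptor, DNA-sensing and output lists lie at -0.41, -0.43, -0.31 and -0.83. The far left points of the lowest list are CCL5 and IFNB1, which had no fragment in the knockout.

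What the members share beyond their roles was read from their positions and transcripts in the GENCODE annotation of GRCh38. They lie on 7 chromosomes, with IFIH1 and EIF2AK2 on chromosome 2 (162267079 to 162318703 and 37099210 to 37157065) and MAVS and ZNFX1 on chromosome 20 (3846799 to 3876123 and 49237946 to 49278426). DDX58 is on chromosome 9 (32455705 to 32526324), DHX58 on 17 (42101404 to 42112733), TLR3 on 4 (186069152 to 186088069), TBK1 on 12 (64451880 to 64502108) and ADAR on 1 (154582057 to 154628013). The 5 members called lower were those of lowest GC content in the transcript, at 37.6% for TLR3, 38.7% for EIF2AK2, 39.3% for TBK1, 40.5% for DDX58 and 43.3% for IFIH1, while ADAR, ZNFX1, MAVS and DHX58 held 49.5% to 58.2%. Over all genes the median log2 fold change moved with GC content too, from -0.35 in the tenth of genes lowest in GC to 0.25 in the highest. After a curve on GC content was subtracted from each library, the log2 fold changes were -3.80 for DDX58, -2.94 for IFIH1, -1.40 for EIF2AK2 and -1.14 for TLR3, and these stayed called, whereas TBK1 at -0.75 did not.

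YTHDC2 reads m6A, which is laid down at a subset of sites with a core such as GGACT. This letter string occurred 6 times in the IFIH1 transcript (1.67 per kb), 4 times in DHX58 (1.53 per kb), and among the other members called lower 3 times in DDX58 (0.689 per kb), 4 times in TLR3 (0.665 per kb), 5 times in EIF2AK2 (0.498 per kb) and 1 time in TBK1 (0.307 per kb), with a median over tested genes of 0.942 per kb. Of the 5 called members IFIH1 alone lay above that median, and of those not called DHX58 and ADAR (1.04 per kb) lay above and MAVS (0.683 per kb) and ZNFX1 (0.814 per kb) below. Methylation of these transcripts was not measured here.

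The genes whose profile over the 6 libraries was most like that of each member were taken from the 11121 genes whose mean reached 1 FPKM, by the root mean square difference of centred log2(FPKM + 0.1) values. For DDX58 they were IFI44L (0.35), IFIT1 (0.41) and IFI6 (0.44), and for IFIH1 they were IFI6 (0.39), PARP10 (0.40) and ISG15 (0.45). EIF2AK2 was nearest to IFIT5 (0.12) and IFITM3 (0.19), and DHX58 to CBWD3 (0.21), HELZ2 (0.36) and TRIM21 (0.36). TBK1 was nearest to NOP58 (0.05), ATRX (0.08) and CCDC66 (0.08), and MAVS to CHD4 (0.01), CRTAP (0.01) and CYB5RL (0.02). ADAR and ZNFX1 had MFSD6 as their nearest gene (0.07 and 0.06), followed by ZNF34 (0.07) and VPS36 (0.08) for ADAR and by DNAJB9 (0.06) and KBTBD7 (0.07) for ZNFX1. For TLR3 the measure gave SAMHD1 (0.17), PLSCR1 (0.17) and GOLGA8B (0.19), but the pseudocount flattens a gene this low, and SAMHD1 was at 45.0% of its WT mean against 5.74% for TLR3. These likenesses are descriptions over 6 libraries of 2 genotypes, so that genes with a like difference between genotypes come out alike.

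Some members overlap other genes on the opposite strand, and a strand setting was not given in the sources used here, so that reads of both cannot be told apart. The antisense gene AC135279.3 covers 14.7% of the exon bases of TBK1. DDX27 and ZFAS1 cover 2.17% and 2.67% of those of ZNFX1, and GPATCH11 and the pseudogene AC007899.1 cover 0.325% and 3.73% of those of EIF2AK2.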

How the data were processed

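RNA was extracted with TRIzol and made into libraries with the VAHTS Universal V6 kit, and 3 YTHDC2 knockout and 3 WT libraries of H1975 cells were grouped by the genotype in their labels. The authors deposited 1 table of FPKM values (fragments scaled to transcript length and sequencing depth) for 16760 genes, with GRCh38.p13 named as build in the submitters' processing notes; the aligner, counter, annotation, strand and filters were not given in the sources used. Whole fragments were recovered from the steps between low FPKM values for 100% of genes (tolerance 0.02 of a whole number), which gave 32323120 to 34027079 fragments in the knockout and 27363312 to 30515208 in WT. Intervals cover counting error only, at 95% confidence. The floor of 3 fragments covers that of the knockout count alone, with the WT count taken as exact.

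Genes above 0 FPKM in at least 3 libraries (15441) entered limma 3.58.1 under R 4.3.3, fitted to log2(FPKM + 0.1) without a replicate block, with a mean-variance trend and robust moderation. Benjamini-Hochberg adjustment ran over all of them, and a call needed an adjusted p under 0.05 together with a log2 fold change beyond 1. limma voom on the recovered fragments called 483 genes lower and 167 higher. The 5 ratios were compared by exact two-sided permutation. Scripts were tested on simulated data with equal spread in all libraries and changes only in genes whose mean reached 1 FPKM. Calls on scarcer members, such as TLR3 and DHX58, or with a library that stands apart were therefore not tested. Positions, GC content and GGACT counts came from GENCODE annotation of GRCh38, with 99.1% of symbols matched, and promoters from RefSeq (7 of 9 members matched, without DHX58 and ZNFX1). Python 3.11.15, numpy 2.4.6, pandas 2.3.3, scipy 1.17.1 and matplotlib 3.10.9 were used.

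The members, the gene lists, the ratios and the motifs were chosen with earlier results of these data known. Named were all members, YTHDC2, up to 4 called genes of each list by smallest adjusted p (or 2 genes where none was called), the closest relatives of members, and the 3 genes most alike each member. The values of some genes within this rule are not reported here. The marker genes, the overlapping genes, IFI16, CXCL8, IFNL1 and CXCL10 fall outside that rule and were chosen after their values were seen. The same holds for AZI2, NFKB1, RELA, TRAF2 and TRADD. Alternatives were pseudocounts of 0.01 and 1, no filter and a filter at a mean of 1 FPKM, 3 other scalings, limma without trend and robustness, a replicate block, a GC correction, voom and leaving out each library.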

Additional observations from a re-analysis of the deposited data

How the results depend on the processing

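For the 9 members, 151 fold changes were computed under alternatives. Of these 140 kept direction and call, 10 lost the call, 1 gained it (DHX58 without WT replicate 2) and 0 turned direction. A kept call can hide the crossing of a single threshold, as for DHX58 at -0.97 with quantile normalization. DHX58 and TLR3 could not be fitted under the filter at a mean of 1 FPKM, since their means are lower. The 10 were DDX58 and IFIH1 with voom, TLR3 with a pseudocount of 1, and TBK1 with a pseudocount of 1, GC correction, median scaling (-0.88), quantile normalization (-0.88) and without WT replicate 2, WT replicate 3 or YTHDC2 knockout replicate 1 (-0.92). Members called lower numbered 3 with voom and 3 with a pseudocount of 1, and 4 to 5 when a library was left out. Of pathway genes, 8 were called lower with a pseudocount of 0.01, 3 with a pseudocount of 1, 3 with the filter at 1 FPKM, and 3 to 6 when a library was left out, the lowest without WT replicate 3. Over all genes, the number called lower was 126 with the filter at 1 FPKM, where fewer genes were tested, 483 with voom, 505 and 69 with pseudocounts of 0.01 and 1, 204 with quantile normalization, and 301 to 396 when a library was left out. The number called higher was 56 with GC correction (beside 300 lower), 183 with median scaling, 184 and 29 with those pseudocounts, 197 with quantile normalization, and 91 to 157 when a library was left out. Apart from the filter, the cause of these changes was not tested. The 5 ratios kept their direction under every alternative run.

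Whether the replicate numbers pair the libraries could not be settled with 3 libraries per genotype. Deviations from the group means of same-numbered libraries correlated at 0.21, 0.13 and -0.06 across genes, and those of other-numbered libraries at -0.27 to 0.17. A replicate block gave 309 genes lower and 112 higher with 5 members called lower, and changed the call of no member. It moved the adjusted p of limma, to 0.00812 for DDX58 and to 2.37e-05 for TBK1. Depth limits TLR3 most, at 1 fragment in each of 2 knockout libraries.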

Other observations

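The remaining outputs of the sensors were scarce. The examples were chosen after their values were seen. IFNL1, which encodes interferon lambda 1, had 0 fragments in the knockout libraries and 6 in WT. Against a floor of 3 fragments over the group it was 2.26-fold lower. The counting error of the 6 WT fragments is not in that value, so it is not a lower bound. It passed the adjusted p and not the fold threshold (log2 fold change -0.83; limma, adjusted p = 0.0307), and by limma voom the adjusted p was 0.103. CXCL10, an interferon-induced chemokine gene, had 0 fragments in the knockout and 26 in WT, but 1 of these was left without WT replicate 3, and it was not in the test because only 2 libraries were above 0.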
